A study of Homo sapiens with 61 samples.

Results

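The clustered protocadherin genes are the family members on chromosome 5 whose symbols begin PCDHA, PCDHB or PCDHG. Taken by symbol and chromosome from GENCODE 44, they numbered 53 of the 19970 protein-coding genes with an annotated start site. Of these, 15 formed the alpha cluster (chr5:140786136-141012347), 16 the beta cluster (chr5:141051374-141249365) and 22 the gamma cluster (chr5:141330514-141512977, all hg38). The family was taken up with its H3K4me3 coverage already in view, so its H3K4me3 values are given as a description beside the rate over all promoters and are not independent evidence. The study profiled H3K4me3, a histone mark of promoters, and XPC, the DNA damage sensor of nucleotide excision repair, by ChIP-seq in U2OS cells, a human osteosarcoma line. ASH1L-/- cells lacked the histone methyltransferase ASH1L through CRISPR/Cas9 deletions in its exon 2 and across exons 11 and 12, and were grown from individual colonies, so that effects of the deletion and of the chosen clone cannot be told apart. ASH1L-/- cells and wild-type (WT) cells were each left without UV or given UV-C light at 20 J/m2 and collected 1 h or 3 h later. Each of these 6 groups had 3 H3K4me3 libraries, and 3 XPC libraries apart from 4 in WT without UV, with all libraries called biological replicates. The deletion itself could not be checked in these files, which list peaks only.

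Clustered protocadherins are cell adhesion molecules best known from neurons, where each cell expresses its own small set of them. In the alpha and gamma clusters every variable exon carries its own promoter and is spliced to constant exons shared by the whole cluster, while the beta genes are single-exon genes. Alternate members (PCDHA, PCDHB, PCDHGA, PCDHGB) are chosen by CTCF- and cohesin-dependent looping of a distal enhancer to a single promoter, and the C-type members (PCDHAC1, PCDHAC2, PCDHGC3, PCDHGC4, PCDHGC5) lie at the ends of their clusters and are under partly different control.

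The promoters differed from most others in sequence. RefSeq promoter sequences (GRCh38.p14, 250 bases before to 50 after the start site) were found for 47 of the 53 members, and 46 of the 47 began within 10 bp of the start site used here. PCDHA3, PCDHA13, PCDHB6, PCDHB11, PCDHGA12 and PCDHGC5 had no entry. Their median GC content was 39.7% against 58.7% over all 35116 promoters, and their median number of CpG dinucleotides was 7 against 14. The 4 letters CGCT, the core of the conserved sequence element of this family, stood on the gene's own strand within 100 bases upstream of the start in 44 of 47 members (93.6%) against 28.1% of all promoters, and were lacking there in PCDHA9, PCDHB8 and PCDHGB2. For PCDHGB2 the RefSeq start lay 142 bp downstream of the start site used here, so the bases checked were not those before that site. On either strand of the whole window CGCT was found in 46 of 47 members (97.9%) against 70% of all promoters. The longer AACGCT, which contains CGCT, was found in 3 of 47 (6.38%) against 5.26% of all promoters, on either strand. These matches describe letters and not binding. The last 150 bases before the start are shown for 9 members, picked after the values were seen, of which 8 were called in a comparison of H3K4me3 coverage given below and PCDHGC3 was in none. All lie on the plus strand, and capitals mark CGCT on either strand.
PCDHA2: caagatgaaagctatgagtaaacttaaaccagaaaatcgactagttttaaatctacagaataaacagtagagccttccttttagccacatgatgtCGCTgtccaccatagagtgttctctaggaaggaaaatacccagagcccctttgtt
PCDHA12: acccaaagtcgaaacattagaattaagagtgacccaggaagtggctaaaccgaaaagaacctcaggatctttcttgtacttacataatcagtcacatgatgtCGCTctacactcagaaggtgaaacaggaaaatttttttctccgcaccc
PCDHB7: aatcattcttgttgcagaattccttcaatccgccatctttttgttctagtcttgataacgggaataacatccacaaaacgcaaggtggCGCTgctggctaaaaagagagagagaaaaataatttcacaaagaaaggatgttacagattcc
PCDHB16: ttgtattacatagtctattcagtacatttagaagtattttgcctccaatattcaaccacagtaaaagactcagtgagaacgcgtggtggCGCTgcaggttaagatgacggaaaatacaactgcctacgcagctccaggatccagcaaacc
PCDHGA6: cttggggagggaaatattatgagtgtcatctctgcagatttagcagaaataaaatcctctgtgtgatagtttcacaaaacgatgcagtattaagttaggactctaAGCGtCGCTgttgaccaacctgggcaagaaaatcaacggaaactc
PCDHGB5: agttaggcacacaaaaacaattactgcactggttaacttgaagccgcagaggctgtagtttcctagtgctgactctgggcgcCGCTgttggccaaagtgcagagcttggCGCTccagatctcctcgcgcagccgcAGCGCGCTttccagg
PCDHGB7: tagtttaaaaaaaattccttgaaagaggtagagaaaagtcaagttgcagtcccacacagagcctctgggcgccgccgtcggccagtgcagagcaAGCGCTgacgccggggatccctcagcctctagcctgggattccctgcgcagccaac
PCDHGC3: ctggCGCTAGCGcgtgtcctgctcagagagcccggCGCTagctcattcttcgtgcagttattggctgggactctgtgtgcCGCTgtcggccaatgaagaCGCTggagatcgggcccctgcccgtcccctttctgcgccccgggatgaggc
PCDHGC4: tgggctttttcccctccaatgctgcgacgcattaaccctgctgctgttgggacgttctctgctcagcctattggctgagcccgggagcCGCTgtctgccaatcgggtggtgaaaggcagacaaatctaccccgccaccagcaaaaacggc
The printed stretches are chr5:140794702-140794851 (PCDHA2), chr5:140875158-140875307 (PCDHA12), chr5:141172494-141172643 (PCDHB7), chr5:141182237-141182386 (PCDHB16), chr5:141373741-141373890 (PCDHGA6), chr5:141397797-141397946 (PCDHGB5), chr5:141417527-141417676 (PCDHGB7), chr5:141475816-141475965 (PCDHGC3) and chr5:141484880-141485029 (PCDHGC4). Each carries CGCT at least once, and PCDHGB5 and PCDHGC3 carry several copies. Among them are members with shorter H3K4me3 coverage in ASH1L-/- cells (PCDHA2, PCDHGB5) and PCDHGC3, which was called in no comparison of the main analysis. Across the 47 members, GC content and mean H3K4me3 coverage were unrelated (Pearson's r = -0.02, Spearman's rho = 0.00451, across genes of the same libraries, as a description).

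The peak lists hold no read counts, and the read numbers that the paper reports for each library were not used here. The 18 H3K4me3 libraries held 72984 to 142688 peaks that covered 74.3 to 91.7 Mb in ASH1L-/- cells without UV, 79.4 to 108 Mb in irradiated ASH1L-/- cells, 70.1 to 93.3 Mb in WT cells without UV and 97.2 to 132 Mb in irradiated WT cells. The highest totals were those of irradiated WT libraries, and since covered DNA moved with the groups, values scaled to an equal covered total per library stand beside the main results. Promoters of mesenchymal and osteoblast markers carried H3K4me3 in 6 of 8 genes (median 2.72 kb of 4 kb among those covered), neuronal markers in 7 of 8 (2.07 kb), epithelial markers in 3 of 5 (0.712 kb), and blood markers in none of 4, all at 0 kb.

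All 53 protocadherin promoters carried H3K4me3 peaks in at least 3 of the 18 libraries, and 45 did in every library. Over the 4 kb around each start site, the median member had 1.52 kb under peaks, less than the 2.51 kb of all 14745 promoters covered in 3 or more libraries. The median was 1.24 kb in the alpha, 1.46 kb in the beta and 1.81 kb in the gamma cluster. Among relatives outside the clusters, 12 of 16 non-clustered protocadherins were covered, at a median of 1.14 kb, and 16 of 19 classical cadherins, at 1.63 kb. The 26 covered genes within 500 kb of the clusters had a median of 2.85 kb.

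In the alpha cluster the longest coverage was that of PCDHAC1 (2.08 kb), PCDHA6 (1.75 kb) and PCDHA4 (1.75 kb), and the shortest that of PCDHA9 (0.919 kb), PCDHA7 (0.651 kb) and PCDHA13 (0.109 kb). In the beta cluster PCDHB5 (2.35 kb), PCDHB16 (2.06 kb) and PCDHB15 (2.03 kb) were longest and PCDHB4 (1.13 kb), PCDHB10 (1.02 kb) and PCDHB13 (0.617 kb) shortest. The gamma members ran from PCDHGA11 (2.62 kb), PCDHGA5 (2.55 kb) and PCDHGC3 (2.54 kb) down to PCDHGC5 (0.872 kb), PCDHGB5 (0.627 kb) and PCDHGC4 (0.350 kb). PCDHGC3, the C-type gene nearest the alternate gamma genes, was the steadiest of these, at 2.54 ± 0.0706 kb over the 18 libraries (SD), between 2.41 and 2.69 kb. At the other end, PCDHA13 had a peak in 6 libraries only, all of them irradiated WT. Peak height, the fold enrichment of the highest peak in the window over input, had a median over libraries of 19.7 at PCDHB5, 16.4 at PCDHA11, 14.9 at PCDHA4 and 11.7 at PCDHGC3, against 3.62 at PCDHGB4, 3.54 at PCDHA2, 3.29 at PCDHGB5, 2.90 at PCDHGC4 and 2.87 at PCDHA13.

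**Figure D1:**
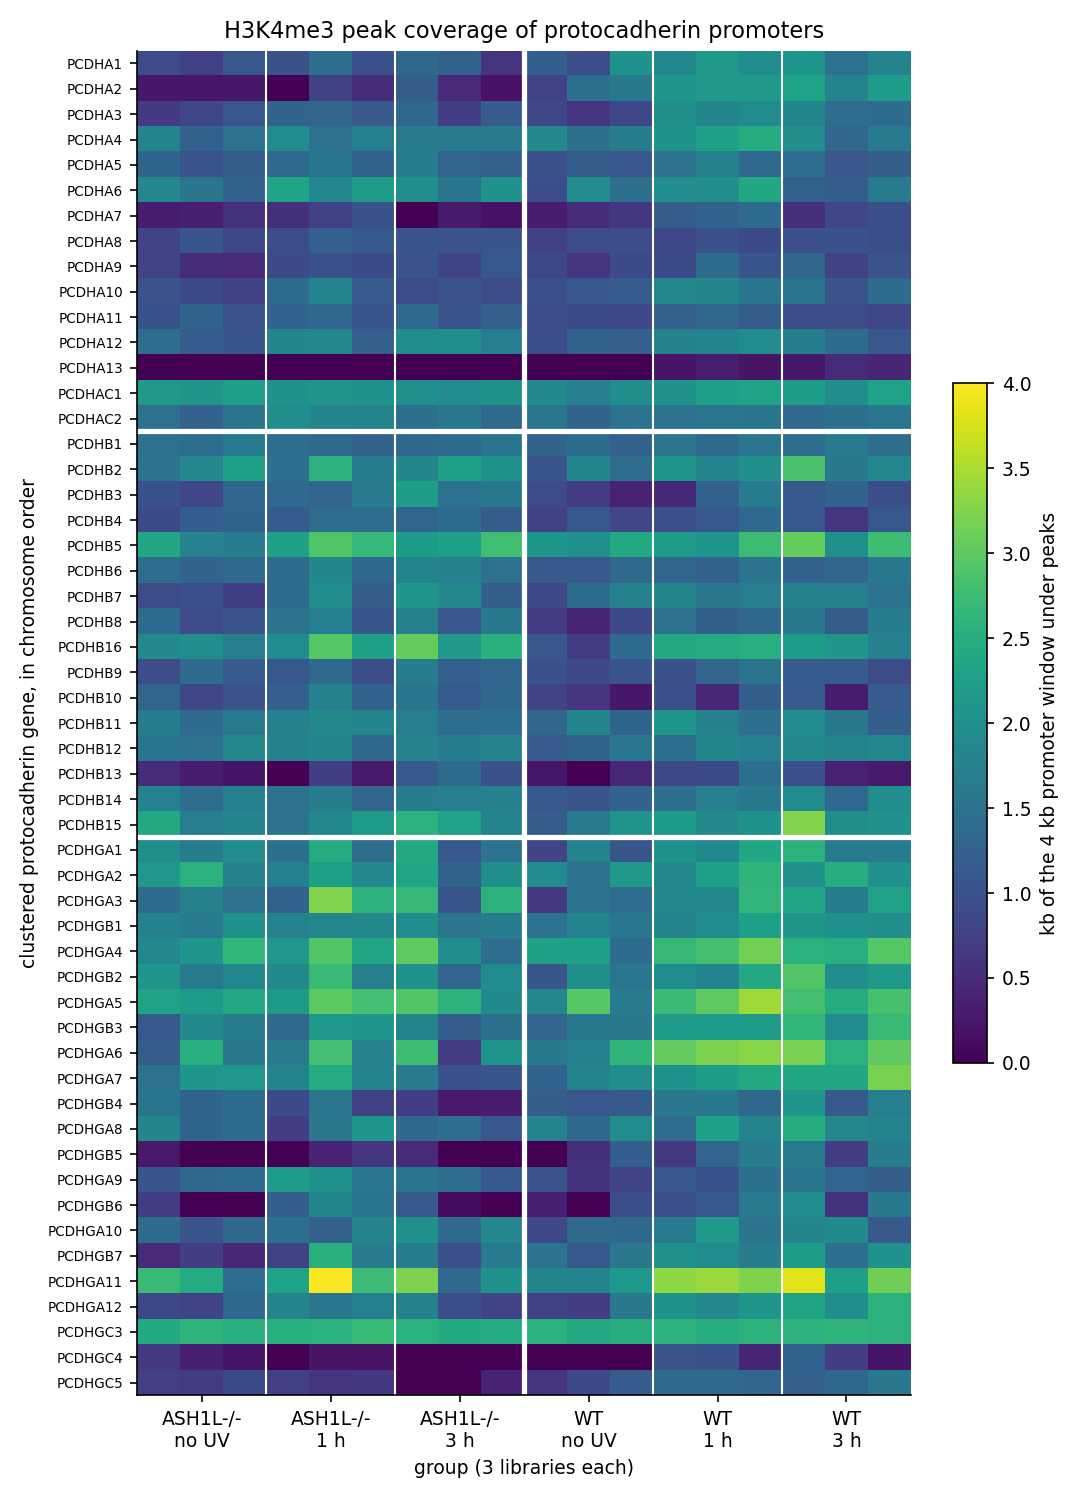
H3K4me3 coverage of each of the 53 promoters (rows, chromosome order, clusters split by thick lines) in each of the 18 libraries (columns, grouped by genotype and time), as kb of the 4 kb window under peaks. PCDHGC3 is even across all columns, PCDHA13 is covered in the 6 irradiated WT libraries only, and PCDHA2 is covered least in the ASH1L-/- columns.

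The marked stretch lay mostly downstream of the start site. Of all covered length in the windows, 76.7% was downstream, with 72.0% in the alpha, 75.8% in the beta and 79.7% in the gamma cluster. Coverage was most frequent 125 bp downstream of the start in the alpha cluster (90% of members and libraries), at the start itself in the beta cluster (89.2%) and 75 bp downstream in the gamma cluster (82.1%). At 1 kb downstream it was 30% in the alpha cluster against 72.2% in the beta and 71.7% in the gamma cluster, and 1 kb upstream it was 3.70%, 7.99% and 10.9% for alpha, beta and gamma. Because members resemble each other in sequence and reads of low mapping quality had been dropped, stretches shared between members may hold fewer reads, and its part in these profiles was not tested. The start site itself was under a peak in all 18 libraries in 23 members, of which 9 were alpha, 10 beta and 4 gamma. Coverage 2 kb downstream was most frequent in the gamma cluster, at 37.6% against 9.26% in the alpha and 1.74% in the beta cluster. At 2 kb upstream it was 16.7% in the gamma, 1.11% in the alpha and 7.29% in the beta cluster. Peaks of neighbouring members count in these shares, which therefore do not measure how far single domains reached. The share of gamma members 2 kb downstream was 22.7% without UV, 39.4% at 1 h and 19.7% at 3 h for ASH1L-/- cells, and 28.8% without UV, 59.1% at 1 h and 56.1% at 3 h in WT cells. For alpha members it was 0%, 4.44% and 2.22% at these times in ASH1L-/- cells and 4.44%, 35.6% and 8.89% in WT cells.

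**Figure D2:**
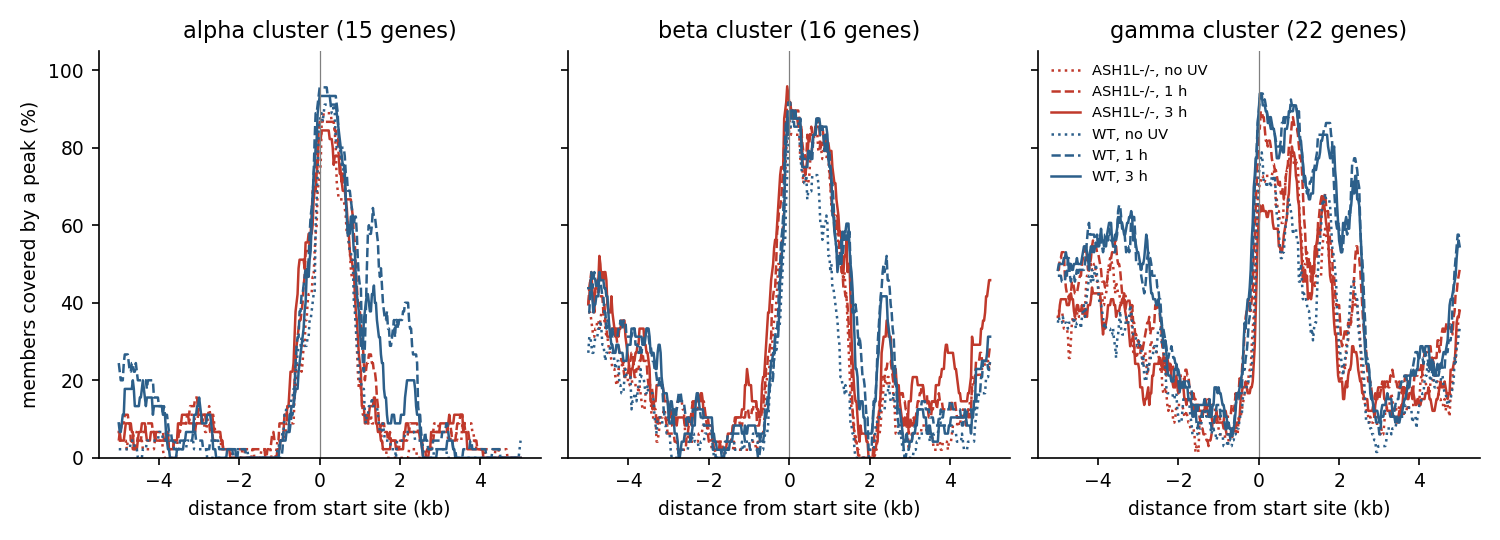
Share of members under an H3K4me3 peak (%, mean of 3 libraries) by distance from the start site (kb), for the alpha, beta and gamma clusters, with 1 line per genotype and time. All clusters peak at or just downstream of the start, and 2 kb downstream the irradiated WT lines stand above the ASH1L-/- lines in the gamma cluster (59.1% and 56.1%, against 39.4% and 19.7%).

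Outside the promoter windows, the peaks of the 18 libraries merged into 25 regions in the alpha, 37 in the beta and 21 in the gamma cluster, of which 10, 13 and 12 came from 1 library alone. Only 3, 6 and 3 of them recurred in 17 or 18 libraries. The 3 in the alpha cluster (chr5:140909044-140911512, chr5:140944631-140946601 and chr5:141001093-141002691) overlapped no annotated exon. Of the 6 in the beta cluster, 3 lay on the beta pseudogenes PCDHB17P (chr5:141155472-141157708), PCDHB18P (chr5:141233663-141238351) and PCDHB19P (chr5:141239223-141242277), and 1 ran from PCDHB15 into TAF7 (chr5:141247447-141271508). Of the 3 in the gamma cluster, 1 lay downstream of the PCDHGA1 start, over its exon (chr5:141332689-141334855), 1 on an exon of PCDHGC3 (chr5:141507930-141509962), and 1 on the last exons, which all gamma genes share, and DIAPH1 (chr5:141512315-141515576).

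UV irradiation of WT cells lengthened H3K4me3 coverage at 21 of the 53 promoters and shortened it at none, in limma over all 14745 promoters (mean of 1 h and 3 h minus no UV, Benjamini-Hochberg adjusted p under 0.05). An unadjusted p under 0.05 was found at 36 of the 53, against 6990 of all 14745 promoters. The same test called 30.5% of all promoters higher and 0.0271% lower, so that the members' share was near the rate of all promoters. All 53 differences were positive, with a median of 0.47 kb against 0.20 kb over all promoters. Without the first or the second WT library that had no UV, the count of 21 was 10 or 9. By cluster 7 of 15 alpha, 5 of 16 beta and 9 of 22 gamma members were called higher. When each library was scaled to an equal covered total, the median of all promoters became -0.61 kb, and 10 members were called higher and 2 lower, against 2.64% and 52.3% of all promoters. Under that scaling the median members of the 3 clusters stood at -0.03 kb in the alpha, -0.07 kb in the beta and 0.07 kb in the gamma cluster, all above the median of all promoters. The scaling multiplies each length and so takes less from short coverage. The members were covered for less, at a median of 1.52 kb against 2.51 kb over all promoters tested. How much of these contrasts comes from that was not tested.

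Among the members called, the largest increases in WT cells were those of PCDHGA11, PCDHB16, PCDHGA12, PCDHA3, PCDHGB6 and PCDHA2, each an adhesion receptor of the alternate class. PCDHB16 had 1.08, 0.712 and 1.41 kb under peaks without UV, 2.42, 2.46 and 2.52 kb at 1 h, and 2.19, 2.08 and 1.74 kb at 3 h, in the WT libraries. None of the irradiated libraries overlapped those without UV, and the increase was 1.17 ± 0.21 kb (SE, limma adjusted p = 0.00263). PCDHA3 had 0.849, 0.619 and 0.848 kb under peaks without UV, 1.99, 1.83 and 1.92 kb at 1 h, and 1.84, 1.44 and 1.41 kb at 3 h, in the WT libraries. Again the groups did not overlap (0.97 ± 0.13 kb, adjusted p = 0.000503). PCDHGA12 had 0.784, 0.721 and 1.6 kb under peaks without UV, 2.05, 1.88 and 2.11 kb at 1 h, and 2.33, 1.99 and 2.57 kb at 3 h, in the WT libraries. All 6 irradiated libraries exceeded the highest library without UV (1.12 ± 0.22 kb, adjusted p = 0.00351). PCDHGA11 had 1.82, 1.81 and 2.13 kb under peaks without UV, 3.32, 3.4 and 3.22 kb at 1 h, and 3.81, 2.27 and 3.14 kb at 3 h, in the WT libraries. Here too every irradiated library was higher (1.28 ± 0.42 kb, adjusted p = 0.0348). PCDHA2 gained 0.82 ± 0.21 kb (adjusted p = 0.0147), and PCDHGB6 0.88 ± 0.32 kb (adjusted p = 0.0477) with overlap, since its lowest irradiated library had 0.584 kb against 0.959 kb in the highest without UV. Among the C-type genes PCDHGC4 (0.78 ± 0.18 kb, adjusted p = 0.00796) and PCDHGC5 (0.49 ± 0.12 kb, adjusted p = 0.0109) rose, as did PCDHAC1 (0.31 ± 0.09 kb, adjusted p = 0.0178), whose difference turned to -0.41 kb (adjusted p = 0.12) with equal covered totals. PCDHAC2 (0.05 ± 0.09 kb, adjusted p = 0.637) and PCDHGC3 (0.09 ± 0.06 kb, adjusted p = 0.246) were not called.

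In ASH1L-/- cells UV raised coverage at 4 members and lowered it at 2, against 24.0% of all promoters called higher and 0.258% called lower by the same limma fit. Leaving out 1 of the 3 ASH1L-/- libraries that had no UV left 0 to 1 members called. The median member changed by 0.18 kb, against 0.17 kb over all promoters. The 4 that rose were PCDHGB7 (1.00 ± 0.28 kb, adjusted p = 0.0220), PCDHB7 (0.75 ± 0.21 kb, adjusted p = 0.0203), PCDHB16 (0.63 ± 0.21 kb, adjusted p = 0.0438) and PCDHA12 (0.54 ± 0.15 kb, adjusted p = 0.0199). PCDHGB7 had 0.472, 0.741 and 0.438 kb under peaks without UV, 0.789, 2.53 and 1.67 kb at 1 h, and 1.69, 0.971 and 1.66 kb at 3 h, in the ASH1L-/- libraries. Every irradiated library was above those without UV. The 2 that fell were PCDHGB4 (-0.66 ± 0.19 kb, adjusted p = 0.0254) and PCDHGC5 (-0.39 ± 0.12 kb, adjusted p = 0.0294). PCDHGB4 had 1.55, 1.29 and 1.42 kb under peaks without UV, 0.9, 1.58 and 0.758 kb at 1 h, and 0.744, 0.287 and 0.301 kb at 3 h, in the ASH1L-/- libraries. The 3 h libraries were lowest and 1 library at 1 h exceeded all without UV, so the groups overlapped. With a window of 1 kb to each side the difference turned to 0.11 kb (adjusted p = 0.686). On equal totals PCDHGB4 and PCDHGB7 kept their calls, PCDHGB6 was called higher and PCDHGC4 lower, giving 2 and 2. These counts, too, stand without the share of all promoters called under that scaling.

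Between the genotypes without UV, only PCDHA2 was called, with less coverage in ASH1L-/- cells (-1.05 ± 0.25 kb, limma adjusted p = 0.0286), against 2.86% of all promoters called higher and 1.11% called lower. At an unadjusted p under 0.05 the members numbered 9 of 53, against 2848 of all 14745 promoters. After UV (mean of 1 h and 3 h) 14 members were lower and 2 higher in ASH1L-/- cells, against 9.14% and 10.7% of all promoters. The median member stood at -0.15 kb against 0.001 kb over all promoters. The lower members were 6 of 15 in the alpha cluster (PCDHA1, PCDHA2, PCDHA3, PCDHA7, PCDHA10 and PCDHA13) and 8 of 22 in the gamma cluster (PCDHGB3, PCDHGA6, PCDHGA7, PCDHGB4, PCDHGB5, PCDHGA12, PCDHGC4 and PCDHGC5), with no beta member among them. PCDHA13 had peaks in 6 libraries, all irradiated WT, and so met the filter on covered libraries through that group alone. The direction of its call was thereby set in advance and is no evidence. The same holds for its UV difference in WT cells. In the gamma cluster 20 of 22 differences were negative (median -0.41 kb), while the beta median was 0.02 kb and the alpha median -0.15 kb. The 2 higher members were PCDHB10 (0.51 ± 0.17 kb, adjusted p = 0.0485) and PCDHGA9 (0.39 ± 0.13 kb, adjusted p = 0.0449). The scaling to equal totals moved the median of all promoters to 0.46 kb and gave 9 lower and 9 higher members, all 9 of the lower ones being among the 14. The shares of all promoters called under that scaling are not given here, so these counts are not a result about the members.

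PCDHA2 showed the largest difference. PCDHA2 had 0.264, 0.242 and 0.258 kb under peaks without UV, 0, 0.783 and 0.529 kb at 1 h, and 1.18, 0.497 and 0.193 kb at 3 h, in the ASH1L-/- libraries. PCDHA2 had 0.819, 1.48 and 1.62 kb under peaks without UV, 2.1, 2.15 and 2.16 kb at 1 h, and 2.32, 1.78 and 2.21 kb at 3 h, in the WT libraries. No ASH1L-/- library reached any irradiated WT library, and after UV the difference was -1.59 ± 0.18 kb (limma adjusted p = 2.46e-05). The peaks at PCDHA2 were also lower, with a highest fold enrichment of 2.04 to 3.19 in ASH1L-/- libraries with a peak and of 3.54 to 8.67 in WT libraries. Peaks were lower in ASH1L-/- cells over all promoters too. There the median height was 6.85, 10.0 and 6.31 without UV, at 1 h and at 3 h, against 9.14, 13.1 and 10.4 in WT cells. For PCDHGC5, the window held 0.762, 0.711 and 0.904 kb under peaks without UV, 0.762, 0.598 and 0.649 kb at 1 h, and 0, 0 and 0.406 kb at 3 h, in the ASH1L-/- libraries. PCDHGC5 had 0.619, 0.879 and 1.16 kb under peaks without UV, 1.36, 1.38 and 1.32 kb at 1 h, and 1.23, 1.34 and 1.6 kb at 3 h, in the WT libraries. After UV the genotypes did not overlap and differed by -0.97 ± 0.10 kb (adjusted p = 9.82e-06). PCDHGB5 had 0.279, 0 and 0 kb under peaks without UV, 0, 0.391 and 0.632 kb at 1 h, and 0.47, 0 and 0 kb at 3 h, in the ASH1L-/- libraries. PCDHGB5 had 0, 0.557 and 1.2 kb under peaks without UV, 0.676, 1.3 and 1.69 kb at 1 h, and 1.66, 0.732 and 1.7 kb at 3 h, in the WT libraries. No peak was called there in 3 of the 6 irradiated ASH1L-/- libraries, and all irradiated WT libraries had more than any ASH1L-/- library (-1.04 ± 0.22 kb, adjusted p = 0.00468). Of the other large differences, PCDHGA6 stood at -1.09 ± 0.32 kb (adjusted p = 0.0269), PCDHGA7 at -0.82 ± 0.19 kb (adjusted p = 0.00670) and PCDHGB4 at -0.82 ± 0.16 kb (adjusted p = 0.00233, but -0.10 kb and 0.705 with 1 kb to each side). These differences kept their direction with equal covered totals, and of the 6 only PCDHGA7 lost its call (-0.43 kb, adjusted p = 0.0559).

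**Figure D3:**
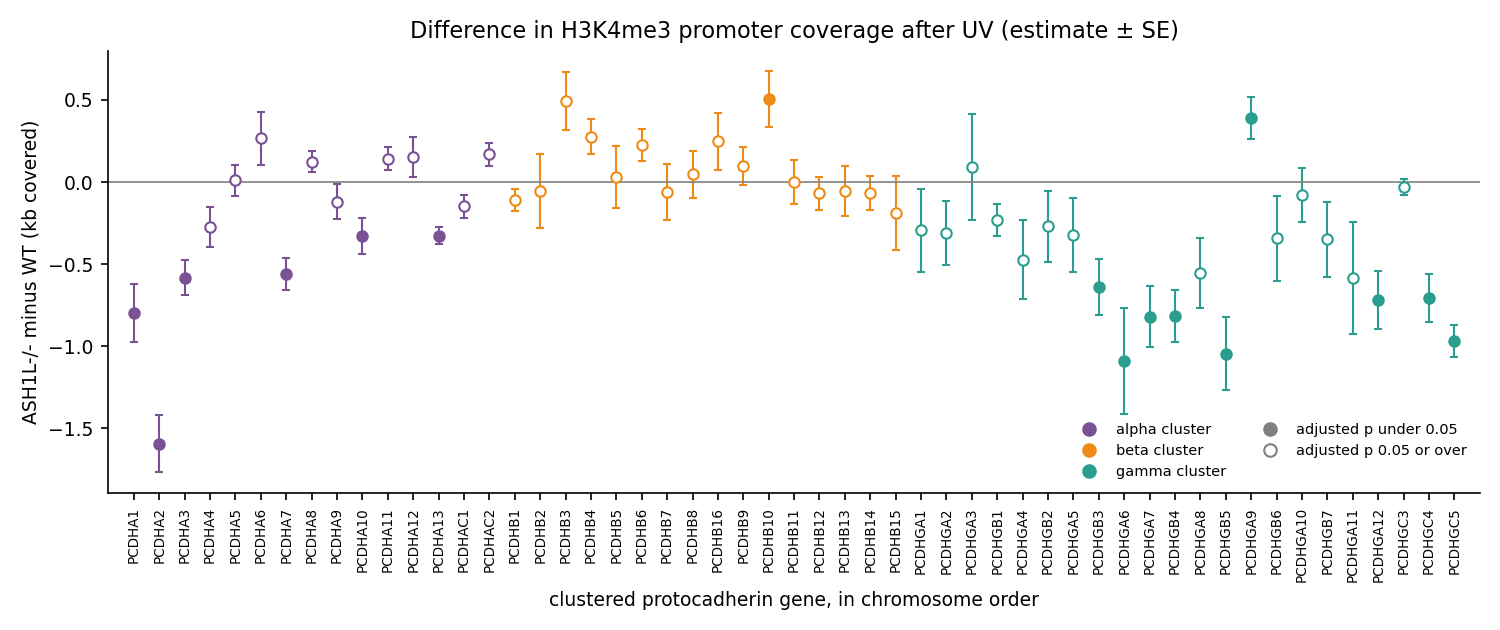
Difference in H3K4me3 promoter coverage after UV, ASH1L-/- minus WT (kb, estimate ± SE from limma), for the 53 members in chromosome order, coloured by cluster, with filled points where the adjusted p was under 0.05. The 14 filled points below 0 are alpha and gamma members, from -1.59 kb at PCDHA2 up to -0.33 kb, and the beta members lie around 0.

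The UV change differed between the genotypes at 2 members by the interaction term of the limma fit, PCDHGC4 (-1.12 ± 0.25 kb, adjusted p = 0.0450) and PCDHGC5 (-0.88 ± 0.17 kb, adjusted p = 0.0272), both smaller in ASH1L-/- cells and both C-type genes at the end of the gamma cluster. Of all promoters 0.861% were called lower and 0.190% higher. In the gamma cluster 21 of 22 interaction estimates were negative, with a median of -0.58 kb against -0.02 kb over all promoters. Of the 22, 8 had an unadjusted p under 0.05, against 1846 of all 14745 promoters. PCDHGC4 had 0.665, 0.35 and 0.222 kb under peaks without UV, 0, 0.205 and 0.211 kb at 1 h, and 0, 0 and 0 kb at 3 h, in the ASH1L-/- libraries. PCDHGC4 had 0, 0 and 0 kb under peaks without UV, 1.02, 1.01 and 0.419 kb at 1 h, and 1.26, 0.726 and 0.22 kb at 3 h, in the WT libraries. The ASH1L-/- libraries without UV thus had short peaks that the WT libraries without UV lacked, and the order was the opposite after UV, with no overlap between the genotypes at either state. All these peaks were low, with fold enrichments of 2.23 to 3.86. When each library was left out in turn, the PCDHGC4 interaction ranged between -1.25 and -0.99 kb and kept its call in 4 of 18 cases, and that of PCDHGC5 ranged between -1.01 and -0.74 kb and kept it in 15 of 18.

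PCDHGC3, next to them, passed the limma threshold in none of the 5 contrasts, while with equal covered totals its UV difference in WT cells was called lower (-0.82 kb, adjusted p = 0.0144). PCDHGC3 had 2.45, 2.6 and 2.51 kb under peaks without UV, 2.53, 2.55 and 2.69 kb at 1 h, and 2.56, 2.45 and 2.46 kb at 3 h, in the ASH1L-/- libraries. PCDHGC3 had 2.55, 2.41 and 2.49 kb under peaks without UV, 2.58, 2.49 and 2.59 kb at 1 h, and 2.57, 2.61 and 2.58 kb at 3 h, in the WT libraries. All 18 values lay between 2.41 and 2.69 kb. The WT libraries at 3 h lay above those of WT without UV and of ASH1L-/- cells at 3 h, by little, and the other pairs of groups overlapped. Its peak height did vary, at 12.4 ± 1.47 without UV, 11.8 ± 1.87 at 1 h and 8.37 ± 1.36 at 3 h for ASH1L-/- cells, and 8.02 ± 1.11, 14.4 ± 5.04 and 22.6 ± 2.3 at the same times in WT cells (fold enrichment, SD, n = 3 each). The median over all promoters with a peak was 6.85 ± 0.18, 10.0 ± 1.95 and 6.31 ± 0.44 in ASH1L-/- cells and 9.14 ± 1.53, 13.1 ± 2.14 and 10.4 ± 0.40 in WT cells, so the 3 h WT libraries, from 20.6 to 25.1 at PCDHGC3, stood further from that median than the other groups did. This comparison of heights was made after the values were seen and was not tested. In the gamma cluster as a whole the median height after UV was 3.82 ± 0.28 in ASH1L-/- and 5.48 ± 0.52 in WT libraries (n = 6 each), in the alpha cluster 7.42 ± 2.23 and 9.85 ± 1.21, and in the beta cluster 8.92 ± 1.7 and 7.56 ± 0.83.

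**Figure D4:**
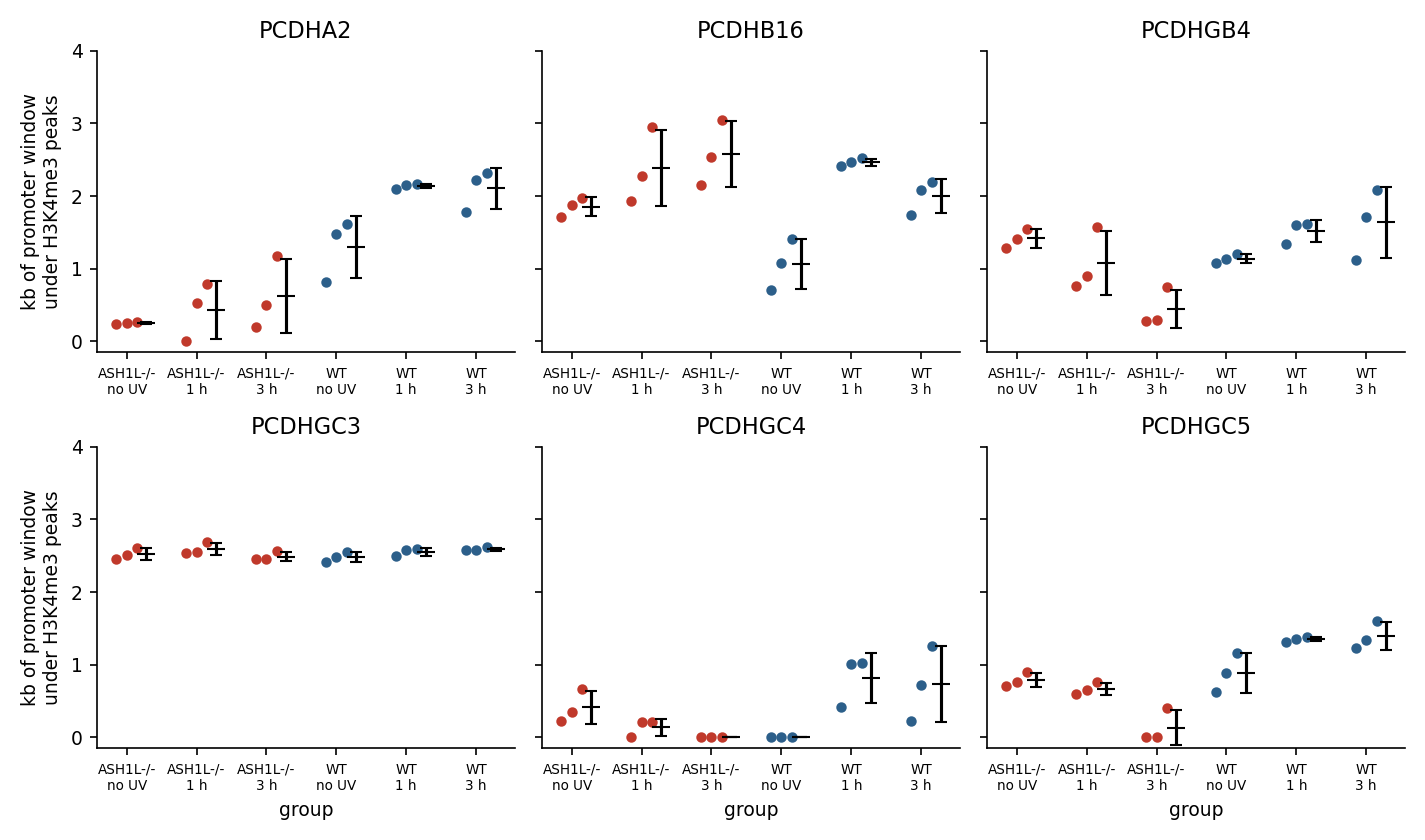
Kb of the 4 kb promoter window under H3K4me3 peaks at PCDHA2, PCDHB16, PCDHGB4, PCDHGC3, PCDHGC4 and PCDHGC5, 1 point per library, with the mean and SD of each group of 3 beside it. PCDHGC3 stays between 2.41 and 2.69 kb in all groups, and at PCDHA2, PCDHGC4 and PCDHGC5 every irradiated WT library lies above every irradiated ASH1L-/- library.

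The number of members with any peak was 50 to 52 in ASH1L-/- libraries without UV and 48 to 52 in irradiated ones, 49 to 51 in WT libraries without UV, and 53 in each of the 6 irradiated WT libraries. Of all 19970 promoters, 13818 to 14033 had a peak in ASH1L-/- libraries without UV and 13928 to 14197 in irradiated ones. In WT libraries these numbers were 13765 to 14178 and 14234 to 14468, so irradiated WT libraries had the most there too. The start site was under a peak in 40 ± 1 members without UV, 46.3 ± 1.15 at 1 h and 40.3 ± 4.93 at 3 h for ASH1L-/- cells, and in 42.7 ± 1.53, 48.7 ± 0.58 and 47.7 ± 3.21 at these times in WT cells (SD, n = 3 each). At 3 h the gamma cluster accounted for most of this gap, with 13.3 ± 4.04 of 22 start sites in ASH1L-/- and 19.7 ± 3.21 in WT cells. Start sites under a peak were not counted over all promoters, so whether this gap was particular to the family was not tested.

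Counted over the merged span of each cluster, so that shared gene bodies entered once, the gamma cluster had 39.5 ± 0.68 kb under H3K4me3 peaks without UV, 47.8 ± 7.54 kb at 1 h and 37.3 ± 9.56 kb at 3 h for ASH1L-/- cells, and 36.2 ± 3.96, 57.4 ± 3.74 and 58.2 ± 7.28 kb at these times in WT cells (SD, n = 3 each). After UV 1 ASH1L-/- library, at 55.9 kb, overlapped the WT range of 51.7 to 66.1 kb and the other 5 lay below it. The UV change was 18.5 kb smaller in ASH1L-/- cells (two-sided exact permutation test with genotypes exchanged within times, 8000 arrangements, p = 0.00175, adjusted over 12 tests 0.021). The beta cluster had 34.4 ± 2.67, 42.5 ± 10.5 and 49.4 ± 9.27 kb in ASH1L-/- and 29.3 ± 3.26, 42.3 ± 5.07 and 43.3 ± 7.79 kb in WT cells, and its UV changes differed by -1.93 kb (exact p = 0.737). The alpha cluster had 20.7 ± 1.59, 26.0 ± 1.69 and 24.9 ± 4.04 kb in ASH1L-/- and 20.2 ± 2.55, 31.0 ± 0.79 and 26.3 ± 3.37 kb in WT cells, with a difference of -3.69 kb (exact p = 0.130). With equal covered totals the gamma difference was -9.19 kb (exact p = 0.043, adjusted 0.258), and the alpha and beta differences turned positive at 1.35 and 4.99 kb.

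Within WT cells the irradiated libraries had 8.48 kb more of the alpha, 13.5 kb more of the beta and 21.6 kb more of the gamma span under peaks than those without UV (exact permutation p = 0.0119 each, the smallest that 84 arrangements give, adjusted 0.0357). All 3 calls were lost when libraries were blocked by replicate (adjusted p = 0.111 each). There 27 arrangements give no exact p under 0.037. Each call was also lost in 9 of 18 cases without 1 library. The number of gamma peaks did not follow their length, at 60.7 ± 6.43 without UV, 63 ± 4.58 at 1 h and 56.3 ± 8.39 at 3 h for ASH1L-/- cells. In WT cells it was 62.7 ± 7.64, 54.7 ± 1.15 and 59.7 ± 2.89, with no higher mean after UV. In the alpha cluster the peaks numbered 26.3 ± 1.53, 30.7 ± 6.11 and 29.7 ± 8.08 in ASH1L-/- and 24.7 ± 5.13, 37.7 ± 2.89 and 32 ± 2.65 in WT cells (SD, n = 3 each, not tested). In ASH1L-/- cells the differences were 4.78 kb (exact p = 0.0476, adjusted 0.0952), 11.5 kb (exact p = 0.0952, adjusted 0.163) and 3.09 kb (exact p = 0.583, adjusted 0.636), and none passed. Scaled to equal totals the WT increases came to 0.26, 0.98 and 5.69 kb and none passed either. The gamma gap after UV was found both in the promoter windows (33.9 ± 7.58 kb in ASH1L-/- and 44 ± 3.66 kb in WT libraries) and in the rest of the span (8.69 ± 2.32 kb in ASH1L-/- and 13.9 ± 1.93 kb in WT libraries, SD, n = 6 each). Without UV the corresponding means were 31.8 kb in ASH1L-/- and 29.6 kb in WT libraries for the windows, and 7.69 and 6.61 kb for the rest.

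Genes around the clusters gave a local comparison. Of the 26 covered genes within 500 kb, 8 were called higher after UV in WT cells and 5 in ASH1L-/- cells, and between genotypes after UV 4 were higher and 1 lower in ASH1L-/- cells. The rates over all promoters were 30.5% and 24.0% for UV in WT and in ASH1L-/- cells, and 10.7% higher and 9.14% lower between genotypes. Both UV counts were near these rates. The 1 that was lower was SLC25A2, a mitochondrial ornithine carrier gene between the beta and gamma clusters. SLC25A2 had 0, 0.418 and 0 kb under peaks without UV, 0.21, 1.17 and 1.14 kb at 1 h, and 1.33, 0.466 and 0.433 kb at 3 h, in the ASH1L-/- libraries. SLC25A2 had 0.747, 0.706 and 1.35 kb under peaks without UV, 2.34, 2.76 and 2.11 kb at 1 h, and 2.04, 1.61 and 2.73 kb at 3 h, in the WT libraries. After UV the genotypes did not overlap, and the difference was -1.47 ± 0.23 kb (limma adjusted p = 0.000483), with a WT increase of 1.33 ± 0.28 kb (adjusted p = 0.00553). TAF7, a subunit of the general transcription factor TFIID beside it, had no such difference (0.21 ± 0.10 kb, adjusted p = 0.150) and rose after UV in ASH1L-/- cells (0.53 ± 0.12 kb, adjusted p = 0.00985).

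Counts for relatives are to be read against all promoters, of which 30.5% in WT and 24.0% in ASH1L-/- cells were called higher after UV. Between genotypes 10.7% were higher and 9.14% lower in ASH1L-/- cells after UV, and 2.86% and 1.11% without UV. The UV change was called larger there at 0.190% and smaller at 0.861%. Non-clustered protocadherins, which lie outside the clusters, were called higher after UV in 7 of 12 covered genes in WT cells and in 1 in ASH1L-/- cells (PCDH9, 0.48 kb, adjusted p = 0.00304). After UV 3 were lower in ASH1L-/- cells, namely PCDH17 (-0.70 kb, adjusted p = 0.00117), PCDH19 (-0.43 kb, adjusted p = 0.00523) and PCDH10 (-0.36 kb, adjusted p = 0.00433), and 2 higher, PCDH15 (0.49 kb, adjusted p = 0.00677) and PCDH7 (0.24 kb, adjusted p = 0.0147). PCDH7 was also higher without UV (0.44 kb, adjusted p = 0.0115). None of the 12 passed the limma interaction test, with 4 at an unadjusted p under 0.05, against 1846 of all 14745 promoters. Of the 16 covered classical cadherins, 2 rose after UV in each genotype, and CDH11, an osteoblast cadherin, was lower in ASH1L-/- cells without UV (-1.53 kb, adjusted p = 0.000759), rose there after UV (1.41 kb, adjusted p = 0.000421) and was the single cadherin with a different UV change (1.17 kb, adjusted p = 0.0446). After UV CDH9 and CDH10 were higher and CDH3 and CDH22 lower in ASH1L-/- cells.

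Genes for regulators of the clusters were called higher after UV at shares to be read against the 30.5% of all promoters in WT and 24.0% in ASH1L-/- cells. Between genotypes the rates over all promoters were 10.7% higher and 9.14% lower in ASH1L-/- cells after UV, and 2.86% and 1.11% without UV. For the difference of UV changes they were 0.190% and 0.861%. Of 14 CTCF, cohesin and loop regulator genes, 3 rose in WT cells after UV, CTCF itself (0.37 kb, adjusted p = 0.0221), the cohesin acetyltransferase ESCO1 (0.51 kb, adjusted p = 0.0144) and the cohesin subunit STAG1 (0.26 kb, adjusted p = 0.0279), and 2 rose in ASH1L-/- cells, ZNF143 (0.71 kb, adjusted p = 0.00522) and HDAC8 (0.49 kb, adjusted p = 0.0323). None of the 14 was called between genotypes by limma, with 2 at an unadjusted p under 0.05 without UV, 1 after UV and 0 in the interaction. Over all 14745 promoters the numbers at that threshold were 2848, 5101 and 1846. Of 12 genes linked to silencing of the clusters, 3 rose in WT cells and 4 in ASH1L-/- cells after UV. Between genotypes after UV the histone H3K9 methyltransferase gene SETDB1 was higher (0.48 kb, adjusted p = 0.00230) and its partner TRIM28 (-0.44 kb, adjusted p = 0.0110) and the SMCHD1 partner LRIF1 (-0.64 kb, adjusted p = 0.00405) were lower in ASH1L-/- cells. Of 15 covered genes for proteins that cleave protocadherins or signal from them, 3 rose in WT and 4 in ASH1L-/- cells after UV. The γ-secretase subunit gene PSENEN was higher in ASH1L-/- cells without UV (0.51 kb, adjusted p = 0.00143) and gained less after UV (-0.47 kb, adjusted p = 0.0293), and RET was lower after UV (-0.68 kb, adjusted p = 0.0328).

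XPC coverage played no part in choosing the family. The XPC lists were called as broad peaks over XPC-knockout immunoprecipitates, 17 of the 19 were exactly 500000 peaks long, and the lowest -log10 p in a list lay between 1.00 and 1.47. The gamma cluster had 26.8 ± 10.9 kb under XPC peaks without UV, 23.3 ± 8.11 kb at 1 h and 30.0 ± 19.3 kb at 3 h for ASH1L-/- cells, and 16.2 ± 8.98, 10.0 ± 3.05 and 20.8 ± 8.22 kb in WT cells. The alpha cluster had 29.0 ± 9.48, 22.7 ± 2.90 and 27.0 ± 21.0 kb in ASH1L-/- and 19.3 ± 3.55, 11.9 ± 4.38 and 17.7 ± 9.98 kb in WT cells. The beta cluster had 20.9 ± 7.38, 17.9 ± 8.19 and 21.8 ± 10.8 kb in ASH1L-/- and 15.6 ± 4.34, 6.18 ± 4.33 and 10.2 ± 6.26 kb in WT cells (SD, n = 3 each, 4 in WT without UV). ASH1L-/- means were higher in each cluster at each time. Single libraries of the genotypes overlapped without UV and at 3 h in each cluster. At 1 h the lowest ASH1L-/- library lay above the highest WT library in the alpha (19.6 against 15.5 kb), beta (11.12 against 11.01 kb) and gamma cluster (15.4 against 12.4 kb).

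Over all times the ASH1L-/- excess was 9.97 kb in the alpha, 9.53 kb in the beta and 11.0 kb in the gamma cluster (two-sided exact permutation p = 0.0314, 0.00686 and 0.0292 over 14000 arrangements), and none passed after adjustment over 12 tests (adjusted p = 0.125, 0.0823 and 0.125). No UV change or difference of UV changes passed either, the nearest being the UV difference of the beta cluster in WT cells (-7.34 kb, exact p = 0.0476, adjusted 0.143). The surrounding DNA moved the same way. The 1 Mb on each side of the clusters together had 343 ± 131, 249 ± 61.9 and 336 ± 215 kb under XPC peaks in ASH1L-/- cells and 201 ± 28.9, 116 ± 43.6 and 200 ± 62.5 kb in WT cells. With equal covered totals the excess was 9.51, 10.2 and 10.9 kb and passed in each cluster (exact adjusted p = 0.00657, 0.00429 and 0.00657), whereas with peaks of a -log10 p of at least 2 alone it was 0.53, 0.11 and 0.13 kb. Most of the unscaled excess thus lay in peaks below that strength. Of all covered DNA, the 1 Mb on each side held 1.02, 0.909 and 1.07 per 1000 in ASH1L-/- cells without UV, at 1 h and at 3 h. In WT cells it held 0.562, 0.482 and 0.648 per 1000 at these times. Relative to the covered total, ASH1L-/- means were thus higher around the clusters as well, and an excess particular to the clusters was not tested.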

How the data were processed

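H3K4me3 (18 libraries) and XPC (19 libraries) peak lists were analysed; 61 samples are listed in all, and the input and XPC-knockout samples served only as the authors' controls. Per the paper's methods and the processing notes, the authors trimmed reads (Trim Galore 0.6.5), aligned them to hg38 (BWA 0.7.17-r1188), dropped low mapping quality, duplicates and blacklisted regions (bedtools 2.29.2, Picard, SAMtools 1.7) and called peaks per library at p under 0.01 (MACS2 2.2.7.1), narrow for H3K4me3 over pooled input and broad for XPC. The deposited columns used are peak positions, the peak's fold enrichment ratio, its -log10 p and its -log10 q-value.

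Covered kb under peaks were counted in the 4 kb around the start site of each of 19970 protein-coding genes (GENCODE 44; MANE Select for 19016, Ensembl canonical for 954). Promoters covered in at least 3 libraries (14745) were fitted in 1 model of 6 groups with limma 3.58.1 (R 4.3.3; trend and robust variances, Benjamini-Hochberg, threshold 0.05). Cluster spans were compared by two-sided exact permutation over libraries, adjusted over 12 tests per antibody (Python 3.11.15, NumPy 2.4.6, SciPy 1.17.1, pandas 2.3.3, matplotlib 3.10.9). Both steps were tested on simulated data. The study itself compared peak densities, a count of peaks filtered by height, by analysis of variance; covered length was used here and is another quantity. Start sites closer than the window share covered DNA in 4 cases.

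The members and gene lists were chosen with earlier results of these data known. Named were the C-type members, the 3 longest and 3 shortest covered members per cluster, up to 6 called members per comparison, TAF7 and SLC25A2, and up to 4 called genes per list and comparison. From peak lists alone low read depth cannot be told from low enrichment, and the read numbers that the paper reports were not used. Covered length also depends on the calling threshold. The labels call the libraries biological replicates without saying how cultures were separated, so p-values measure the spread between these libraries. Alternatives were a 1 kb half-window, no filter, equal covered totals, a fold enrichment of at least 5, a -log10 q of at least 1.3, a replicate block, leaving out each library, and for XPC a -log10 p of at least 2 or the lists of 500000 peaks alone.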

Additional observations from a re-analysis of the deposited data

Results flagged for a closer look

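At 3 places the UV change of H3K4me3 coverage differed between the genotypes by a test of the difference itself. PCDHGC4 stood out with -1.12 kb (ASH1L-/- minus WT, limma interaction, adjusted p = 0.0450) and PCDHGC5 with -0.88 kb (adjusted p = 0.0272). With equal covered totals PCDHGC4 gave -1.11 kb (adjusted p = 1.1e-07) and PCDHGC5 -0.64 kb (adjusted p = 0.159). Over the merged gamma cluster the difference was -18.5 kb (exact permutation p = 0.00175, adjusted 0.021). With equal covered totals it was -9.19 kb (exact permutation p = 0.043, adjusted 0.258) and did not pass. All 3 rest on the H3K4me3 values already in view when the family was taken up, so they are not independent evidence. No XPC span in WT cells without UV, the only group of 4, held a value far from the others.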

How the results depend on the processing

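The numbers of members called moved with the settings. With a 1 kb half-window they were 10 for UV in WT (21 in the main analysis), 2 for UV in ASH1L-/- (6), 2 between genotypes without UV (1), 10 after UV (16) and 1 for the difference of UV changes (2). With only peaks enriched at least 5 fold, which left 42 members, they were 10, 1, 3 and 5 for UV in WT, UV in ASH1L-/-, genotypes without UV and the difference. With no filter there were 0 calls without UV and 0 for the difference, and with a -log10 q of at least 1.3 there were 2 and 1. With equal covered totals 12 were called for UV in WT and 4 between genotypes without UV. Leaving out each library in turn gave 9 to 28, 0 to 9, 0 to 2, 12 to 17 and 0 to 4 calls for the 5 comparisons in the order above. The shares of all promoters called are not given beside these counts, which show only how the calls moved. Among named members, PCDHGB4 turned to 0.11 kb for UV in ASH1L-/- with the 1 kb half-window, PCDHGB6 (UV in WT) lost its call in 12 of 18 such fits, PCDHB16 (UV in ASH1L-/-) in 11, and PCDHGA6 (genotypes after UV) in 5. The 16 calls between genotypes after UV were otherwise within 1.5 times under each of these settings.

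For the H3K4me3 spans, UV in WT lost its calls with equal covered totals (0.26, 0.98 and 5.69 kb for alpha, beta and gamma) and, for alpha, among peaks enriched at least 5 fold (5.22 kb). Leaving out 1 library gave 7.06 to 9.63, 11.6 to 14.8 and 19.5 to 23.4 kb, and each call was lost in 9 of 18 cases, where fewer arrangements set the smallest p. The gamma difference of UV changes ranged between -21.2 and -16.4 kb, losing its call in 6 of 18 cases, and missed the threshold at -9.19 kb with equal covered totals. Over all times, the gamma difference between genotypes passed at -10.7 kb among peaks enriched at least 5 fold and ranged between -10.9 and -7.79 kb, and the beta difference passed at 8.33 kb with equal covered totals. Directions turned with equal covered totals for alpha between genotypes (0.90 kb), for the alpha and beta differences of UV changes (1.35 and 4.99 kb, beta also 0.0962 kb among peaks enriched at least 5 fold and -4.75 to 0.43 kb without 1 library), and for gamma, UV in ASH1L-/- (-3.49 kb); the cause was not tested.

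For XPC, the excess in ASH1L-/- passed with equal covered totals (9.51, 10.2 and 10.9 kb) and ranged between 5.97 and 12.5, 7.52 and 11.0, and 7.30 and 13.3 kb without 1 library. The mean share of covered DNA around the clusters was also higher in ASH1L-/- cells at each time. Uncalled XPC differences changed sign: of UV changes, alpha at -0.85 kb with equal totals, -1.93 kb at a -log10 p of at least 2 and -5.65 to 4.18 kb without 1 library, and gamma at -0.21, -0.36 and -4.99 to 6.83 kb; for UV in ASH1L-/-, beta at 1.69 kb with equal totals, 0.37 kb with lists of 500000 peaks alone and -4.69 to 2.69 kb, and gamma at 3.07, 1.88 and -5.29 to 6.09 kb; and for UV in WT, gamma at 3.28 kb with equal totals and -3.71 to 3.56 kb without 1 library.

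Same-numbered libraries correlated at -0.11 to 0.29 in their deviations from group means (18 of 45 pairs over 0.1), and 16 of 18 libraries correlated best with their own number, a hint from the data and not the design. With the replicate block the counts were 22, 5, 1, 16 and 3, the gamma difference of UV changes stayed at -18.5 kb (exact permutation adjusted p = 0.0469), and the WT span increases of 8.48, 13.5 and 21.6 kb had an adjusted p of 0.111, since 27 arrangements give no exact p under 0.037. Since read counts were not used, peaks missing at PCDHGC4, PCDHA13 or PCDHGB5 mean no call at the depth of that library and not absence of the mark.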
